A study of Homo sapiens with 12 samples.

Results

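The genes described here encode regulators of pre-mRNA splicing: the serine/arginine-rich (SR) proteins SRSF1 to SRSF12, their relatives TRA2A and TRA2B, the kinases CLK1 to CLK4, SRPK1 and SRPK2, and the heterogeneous nuclear ribonucleoproteins (hnRNPs). They were taken by gene symbol and by the type protein coding, which gave 47 of the 63187 genes in the deposited file. This rule uses no measured value, but it was chosen with earlier results of these data known. The 47 are 12 SR genes, 2 TRA2 genes, 6 kinase genes and 27 hnRNP genes. In 3 or more libraries 35 of them reached a normalized count of 10, namely 11 SR, 2 TRA2, 5 kinase and 17 hnRNP genes, and these were tested.

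RNA came from MDA-MB-231, an established line of human breast adenocarcinoma cells, kept for 36 h in 1 of 4 media that all held 3% serum after growth in 10% serum. The labels name the growth medium a high-glucose form of Hanks' balanced salt solution, which is not usually a growth medium, and name no base for the 4 media, whose contents are given here as labelled. The deficient medium had neither glucose nor glutamine, the glucose-only medium had 25 mM glucose and no glutamine, the glutamine-only medium had 4 mM glutamine and no glucose, and the full medium had 25 mM glucose and 4 mM glutamine. Each medium has 3 libraries of total RNA depleted of ribosomal RNA, lettered A, B and C. All cells are of this 1 line. Nothing in the labels says if libraries A, B and C were grown as separate cultures, so that p-values here measure a spread between libraries that may be technical. The libraries held 875033 to 1473587 reads assigned to genes, and all values below are these numbers of reads divided by 1 size factor per library, called normalized counts.

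SR proteins bind RNA through RNA recognition motifs, carry a tail of repeated arginine and serine, and mostly favour the use of nearby exons. Many hnRNPs act against them at the same sites. The CLK kinases in the nucleus and the SRPK kinases, found mainly in the cytoplasm, phosphorylate the arginine/serine tails and so set where SR proteins are and what they bind. Many SR, hnRNP and CLK genes also make transcripts with an extra exon or a retained intron that are kept in the nucleus or degraded, and counts per gene do not separate such transcripts from those that are translated.

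The stretches just before the start sites of 5 genes are shown because these genes moved in both directions in the deficient medium: CLK1, TRA2B and SRSF3 were higher there than in the full medium, and SRSF1 and SRSF10 lower. Each is 250 bases long, ends at the base before the first listed RefSeq start, is written 5′ to 3′ on the gene's strand in build GRCh38.p14, and has the core TGACG of the cyclic AMP response element in capitals, read on either strand (CGTCA on the other).
CLK1, minus strand, chr2:200864659-200864908: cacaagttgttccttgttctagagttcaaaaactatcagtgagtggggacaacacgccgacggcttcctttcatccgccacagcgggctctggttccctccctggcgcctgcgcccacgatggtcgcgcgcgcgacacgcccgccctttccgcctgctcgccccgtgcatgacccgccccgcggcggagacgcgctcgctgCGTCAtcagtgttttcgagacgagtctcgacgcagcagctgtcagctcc
TRA2B, minus strand, chr3:185938015-185938264: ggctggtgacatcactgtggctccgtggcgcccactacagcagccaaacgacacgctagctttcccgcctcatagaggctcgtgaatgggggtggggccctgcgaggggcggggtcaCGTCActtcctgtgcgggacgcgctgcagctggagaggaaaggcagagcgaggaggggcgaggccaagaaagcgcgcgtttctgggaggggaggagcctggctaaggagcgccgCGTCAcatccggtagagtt
SRSF3, plus strand, chr6:36594112-36594361: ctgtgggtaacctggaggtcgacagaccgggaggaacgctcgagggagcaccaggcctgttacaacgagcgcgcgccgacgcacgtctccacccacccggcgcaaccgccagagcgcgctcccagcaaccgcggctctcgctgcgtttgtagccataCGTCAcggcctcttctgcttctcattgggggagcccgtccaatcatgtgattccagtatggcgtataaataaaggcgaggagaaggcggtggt
SRSF1, minus strand, chr17:58007247-58007496: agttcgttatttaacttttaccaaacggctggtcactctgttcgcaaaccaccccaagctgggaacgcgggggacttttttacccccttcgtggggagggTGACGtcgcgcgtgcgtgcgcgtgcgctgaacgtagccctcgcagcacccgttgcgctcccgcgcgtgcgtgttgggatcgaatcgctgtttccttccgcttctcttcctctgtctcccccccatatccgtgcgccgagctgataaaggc
SRSF10, minus strand, chr1:23980328-23980577: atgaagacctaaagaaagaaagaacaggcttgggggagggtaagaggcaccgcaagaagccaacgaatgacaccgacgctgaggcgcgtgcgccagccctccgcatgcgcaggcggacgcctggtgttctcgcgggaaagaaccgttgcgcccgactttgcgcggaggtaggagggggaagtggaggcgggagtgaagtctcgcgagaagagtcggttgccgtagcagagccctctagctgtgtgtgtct

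RefSeq start sites were found for 42 of the 47 genes and 32 of the 35 tested. This core occurred in 16 of these 32 stretches (50.0%), against 21.7% of 27305 stretches of the same length, 1 per gene. The paired heat shock element, GAANNTTC or TTCNNGAA, occurred in 3 of 32 (9.38%), those of HNRNPA2B1, HNRNPC and SRSF8, against 11.7%. The CEBP-ATF response element, TGATGNAA on either strand, occurred in 0 of 32 against 3.19%, and the E-box CACGTG in 7 of 32 (21.9%) against 6.49%. The CCAAT box, read on either strand, occurred in 14 of 32 (43.8%) against 33.0%. The 32 stretches belong to genes measured here, while the 27305 were not limited to such genes or matched for content of G and C. The shares are therefore of unlike sets and do not show that a motif is more frequent in these genes than in other expressed genes. These are matches of letters in 1 window per gene and do not show binding.

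Levels differed widely between the tested members. Per kilobase of exonic sequence in GENCODE release 29, counting the exons of every annotated transcript, the mean normalized count in the full medium was 55.4 for HNRNPK, 49.2 for HNRNPA2B1, 42.7 for HNRNPA1 and 41.7 for HNRNPF. On the same scale SRSF2 stood at 35.8, SRSF6 at 30.7, SRPK1 at 24.0 and CLK1 at 7.51. The lowest among the tested members was CLK3 at 1.17, over 20443 exonic bases.

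Of the 12 members that were not tested, 7 were listed at 0 in every library: HNRNPL, HNRNPA1L2, HNRNPUL2-BSCL2 and HNRNPCL1 to HNRNPCL4. CLK2 and HNRNPR were each listed with 1 read in all 12 libraries together, and HNRNPH1 at 2.71 to 10.4 normalized counts. Products of HNRNPL, HNRNPR and HNRNPH1 are found in most cells, so that values at or near 0 do not show that these genes were silent. Exons shared with other genes in GENCODE release 29 covered 8.22% of the exonic bases of HNRNPL and 0% of those of CLK2, HNRNPR and HNRNPH1, which need not be the annotation behind the file. HNRNPA1L3 and SRSF12 were read at 0 to 5.44 and 0 to 3.90.

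The first comparison asked what the absence of both nutrients did to these genes. In deficient cells the kinase genes CLK1 and CLK3, the SR-like gene TRA2B, the SR genes SRSF3 and SRSF4 and the hnRNP genes HNRNPF, HNRNPC and HNRNPDL were higher than in full-medium cells. The kinase gene SRPK1, the SR genes SRSF1 and SRSF10 and 6 hnRNP genes were lower. CLK1 (ENSG00000013441, chromosome 2, 200853009 to 200864658), whose product phosphorylates SR proteins in the nucleus, had 124, 132 and 129.7 normalized counts in the deficient libraries and 35.7, 40.4 and 40.4 in the full ones. The 3 deficient libraries lay above every library of the other 3 media, and the log2 change was 1.70 ± 0.18 (moderated standard error, SE; adjusted p = 3.89e-09, limma).

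The plot of all tested members by library shows the kinases at the top and the hnRNPs at the bottom.

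**Figure D1:**
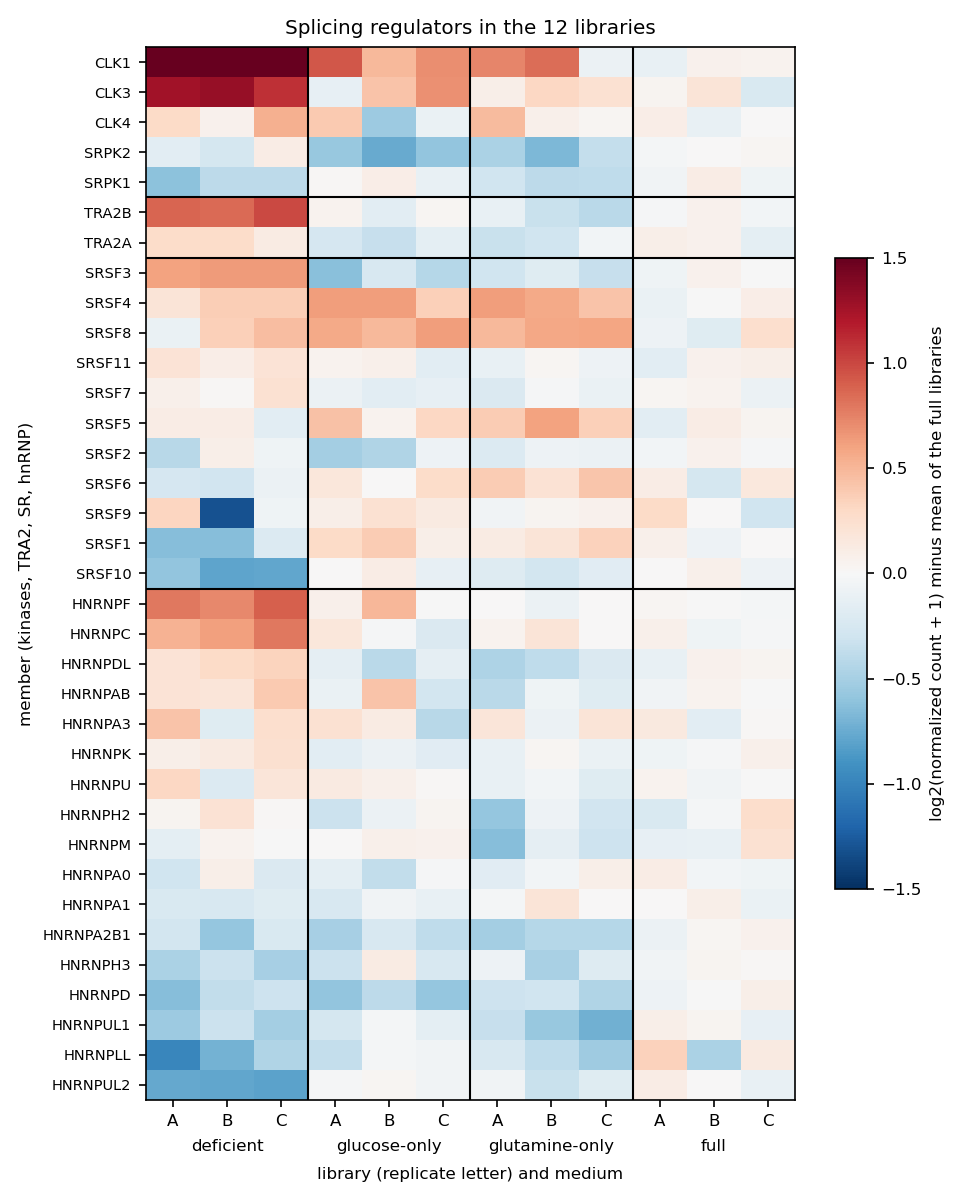
Colour gives log2(normalized count + 1) in each of 12 libraries (columns, by medium) minus the mean of the 3 full libraries, for 35 members (rows, grouped as kinases, TRA2, SR and hnRNP genes). CLK1, CLK3, TRA2B, SRSF3, HNRNPF and HNRNPC are red in all 3 deficient libraries, and SRSF10, SRSF1 and HNRNPUL2 are blue in them.

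Among the kinases, CLK3 had 58.6, 60.4 and 52.0 in deficient cells and 24.5, 27.3 and 20.2 in full-medium cells, again without overlap, a log2 change of 1.22 ± 0.20 (adjusted p = 1.20e-05). CLK4 (ENSG00000113240) had 32.5, 27.8 and 38.8 in deficient and 28.4, 24.4 and 26.6 in full libraries, which overlap, and did not pass (0.30 ± 0.23, adjusted p = 0.277). SRPK1, the chief kinase that primes SR proteins for entry into the nucleus, fell to 104, 122 and 122 in deficient cells, against 155, 174 and 154 in full-medium cells (-0.47 ± 0.11, adjusted p = 6.81e-04). SRPK2 stood at 43.6 ± 6.15 in deficient and 46.8 ± 1.06 in full libraries (SD, n = 3 each) and did not pass (-0.11 ± 0.17, adjusted p = 0.624).

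TRA2B (ENSG00000136527, chromosome 3, 185914558 to 185938014) binds GAA-rich exonic enhancers and promotes exon inclusion. It had 277, 273 and 301 normalized counts in deficient and 150.1, 158 and 147 in full libraries, and the deficient libraries lay above all other 9 (0.90 ± 0.11, adjusted p = 4.41e-08). Its paralog TRA2A had 66.4, 66.4 and 59.8 in deficient and 58.2, 57.3 and 49.5 in full libraries. The groups do not overlap, but the difference did not pass (0.22 ± 0.15, adjusted p = 0.216).

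The SR genes split. SRSF3 (ENSG00000112081, chromosome 6, 36594362 to 36605600), the smallest SR protein, had 309.8, 316 and 317 in deficient libraries and 195, 213 and 203 in full ones (0.62 ± 0.10, adjusted p = 1.31e-05). SRSF10 (ENSG00000188529, chromosome 1, 23964347 to 23980327), which becomes a splicing repressor when heat shock strips its phosphates, had 130.2, 114 and 114 in deficient libraries and 197, 207 and 186 in full ones (-0.72 ± 0.10, adjusted p = 1.39e-06). SRSF1 (ENSG00000136450, chromosome 17, 57989038 to 58007246), the SR protein first purified as a splicing factor, had 50.8, 50.7 and 69.1 in deficient libraries and 84.0, 75.2 and 79.8 in full ones (-0.49 ± 0.14, adjusted p = 0.00357). In all 3 genes the deficient libraries stood apart from every other library. The share of all tested genes with groups lying apart was not counted for any comparison, so such gaps are descriptions only. In GENCODE release 29 other genes on the same strand cover 56.6% of the exonic bases of SRSF1, so that its count may hold or lack shared reads.

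SRSF4 rose less, to 70.3, 79.7 and 80.0 in deficient libraries against 57.5, 61.1 and 66.0 in full ones (0.31 ± 0.13, adjusted p = 0.0432). SRSF2 (-0.13 ± 0.13, adjusted p = 0.428) and SRSF7 (0.11 ± 0.13, adjusted p = 0.517) did not pass, and nor did SRSF5, SRSF6, SRSF8, SRSF9 and SRSF11. With members moving in both directions, the summed normalized count of the 11 tested SR genes was 1282 ± 33.4 in deficient and 1249 ± 24.9 in full libraries (SD, n = 3 each). As a share of reads on protein-coding genes their sum was 0.221 ± 0.00321% in deficient and 0.242 ± 0.00278% in full libraries, without overlap. The direction of the SR total thus depends on the scaling. The summed count of the 2 TRA2 genes was 348 ± 11.5 in deficient and 207 ± 9.58 in full libraries.

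Of the 17 tested hnRNP genes 3 rose and 6 fell in deficient cells. HNRNPF, which binds runs of G, had 234, 223 and 252 in deficient and 138, 135 and 133 in full libraries (0.80 ± 0.12, adjusted p = 1.31e-06). HNRNPC, which binds runs of U, had 290.3, 309 and 349 in deficient and 214, 194 and 199 in full libraries (0.64 ± 0.11, adjusted p = 1.33e-05). For both genes the deficient libraries were the 3 highest of the 12. HNRNPDL changed by 0.28 ± 0.11 (adjusted p = 0.036), while its close relative HNRNPD, which binds AU-rich elements and lies near it on chromosome 4, changed by -0.44 ± 0.11 (adjusted p = 0.00112).

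HNRNPUL1, a relative of HNRNPU, had 111, 129 and 114 in deficient and 172, 167 and 149 in full libraries (-0.46 ± 0.12, adjusted p = 0.00171). HNRNPA2B1 was at -0.36 ± 0.10 (adjusted p = 0.00409). HNRNPH3, HNRNPLL and HNRNPUL2 were named after their values were seen. They were at -0.43 ± 0.13, -0.71 ± 0.22 and -0.78 ± 0.20 (adjusted p = 0.00891, 0.00946 and 0.00155). For HNRNPLL the groups overlap, at 16.9 to 24.8 in deficient and 24.4 to 43.6 in full libraries. HNRNPUL2 had 14 to 23 reads in deficient libraries. In GENCODE release 29 HNRNPUL2-BSCL2 covers 44.1% of its exonic bases on the same strand. HNRNPA1, HNRNPK and HNRNPU, which are among the most abundant nuclear RNA-binding proteins, did not pass, at -0.22 ± 0.10, 0.16 ± 0.09 and 0.10 ± 0.11 (adjusted p = 0.0716, 0.165 and 0.467). Rows of HNRNPA1 pseudogenes summed to 18 normalized counts per library on average beside 207 for HNRNPA1, so that reads of HNRNPA1 may have been split.

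The dots by library for 8 members show the spread behind these changes.

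**Figure D2:**
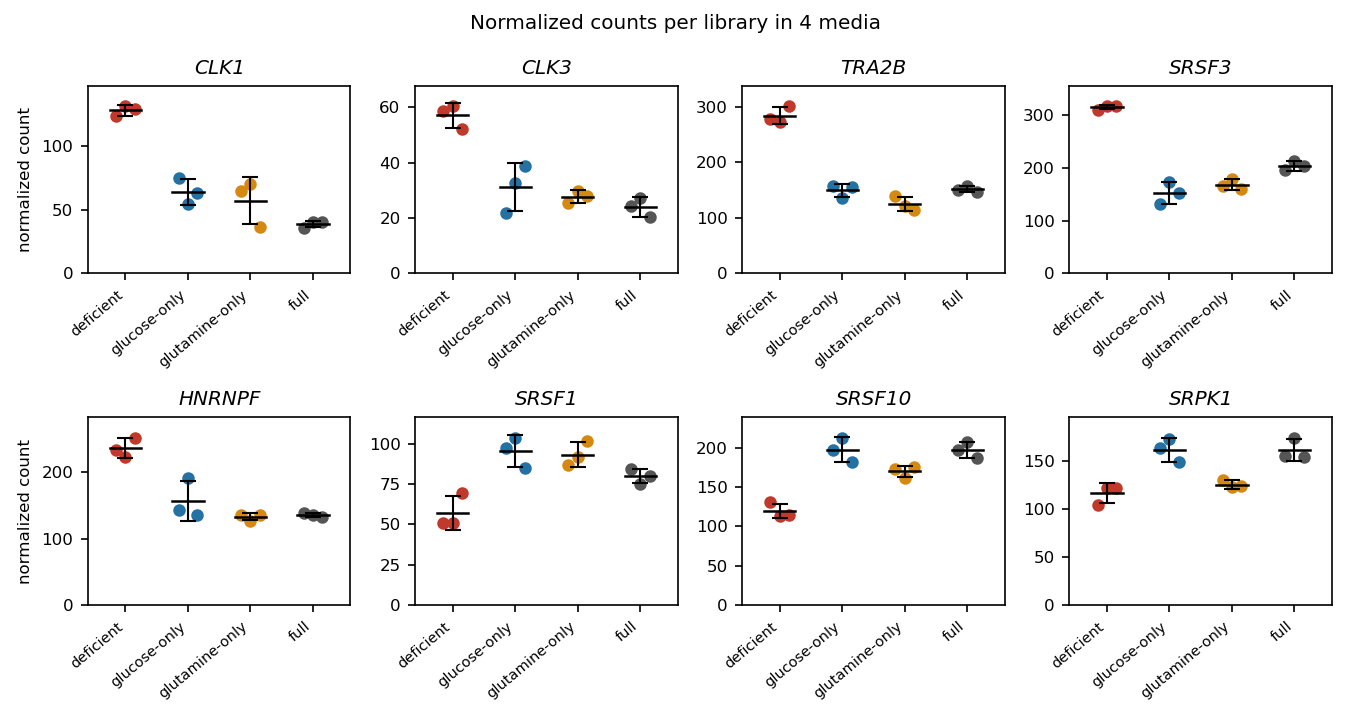
Points give the normalized count of each library for 8 genes in the deficient, glucose-only, glutamine-only and full media, with the mean (line) and SD (bar) of 3 libraries and axes starting at 0. The 3 deficient libraries lie above the other 9 for CLK1, CLK3, TRA2B, SRSF3 and HNRNPF, and below the other 9 for SRSF1 and SRSF10. For SRPK1 they also lie below the other 9, but narrowly (121.95 against 122.31 in a glutamine-only library).

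In all, 17 of the 35 tested members passed the threshold of adjusted p under 0.05 in deficient against full cells, 8 higher and 9 lower. Over all 9270 tested genes 51.8% passed, 26.3% higher and 25.5% lower, against 48.6% of the members. Among genes with a mean normalized count of at least 30, which are measured with less counting error, 62.3% passed, against 46.9% of the 32 members above that mean. The median log2 change of the members was 0.09, and that of all tested genes 0.01. The balance of directions depends on the scaling. Protein-coding genes took 43.0 to 51.6% of reads in deficient and 52.3 to 59.8% in full libraries, and with libraries set to equal totals the median change of all genes moved by -0.39 and the members' split became 4 higher and 17 lower. In that setting SRSF3 (0.154) and HNRNPC (0.138) no longer passed by their adjusted p, and SRSF4 and HNRNPDL changed sign. CLK1, CLK3, TRA2B and HNRNPF stayed higher and past the threshold. The call of SRSF4 also had an adjusted p of 0.0855 to 0.139 without deficient replicate B or C or full replicate A or B, that of HNRNPDL an adjusted p of 0.0523 to 0.144 without deficient replicate B or C or full replicate A or C and that of HNRNPLL an adjusted p of 0.0506 to 0.0812 without deficient replicate A or full replicate A. These are bulk values relative to all other RNA, in which fewer cells and less RNA per cell cannot be told apart.

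Heat shock genes moved with these changes. Of 13 tested genes from a list of 16 heat shock genes 12 were higher in deficient than in full cells. That is 92.3%, against 26.3% of all tested genes, with a median log2 change of 2.26. The list was not of cytosolic heat shock proteins alone and included HSPD1, HSPE1 and HSF1. HSPA6, an inducible HSP70, had 1128 ± 17.1 in deficient and 0.612 ± 1.06 in full libraries (SD, n = 3 each). DNAJB1, a partner of HSP70, changed by 5.62 ± 0.11, HSPH1, an exchange factor for HSP70, by 3.79 ± 0.12 and HSP90AA1, the inducible HSP90, by 2.75 ± 0.10, and their part in the changes above was not tested. The wider splicing machinery was described from lists chosen with earlier results of these data known. Of 61 tested genes for core parts of the spliceosome 20 rose, 5 fell and 36 did not pass in deficient cells, or 41% called against 51.8% of all tested genes, with a median of 0.20 that is smaller than the shift under equal totals given above. SLU7, a factor of the second catalytic step, had 129.5 ± 15.4 in deficient and 59.5 ± 3.47 in full libraries (SD, n = 3 each), a log2 change of 1.10 ± 0.15 (adjusted p = 3.46e-07), and CWC22, which helps to load the exon junction complex, changed by 1.35 ± 0.21. LSM8, of the ring bound to U6 RNA, changed by -0.92 ± 0.16 and SNW1 by 0.87 ± 0.18.

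Of 55 tested other splicing regulators 16 rose, 9 fell and 30 did not pass (45.5% called, against 51.8% of all tested genes, median 0.16). KHDRBS3, a STAR-family regulator, had 87.9 ± 13.2 in deficient and 23.8 ± 3.62 in full libraries (SD, n = 3 each; 1.84 ± 0.19, adjusted p = 4.44e-09). RBMX, an X-linked gene also called hnRNP G that the symbol rule does not take, had 48.6 ± 3.94 in deficient and 134 ± 7.02 in full libraries (-1.45 ± 0.12, adjusted p = 6.43e-11). TARDBP changed by -1.10 ± 0.14 and TIA1, a stress granule protein, by -0.99 ± 0.18. Nonsense-mediated decay is the pathway that degrades many of the extra-exon transcripts of SR genes. Of 15 tested genes of this pathway and of the exon junction complex 60% were called, against 51.8% of all tested genes, with a median of 0.22. Of these 15 genes 6 rose, 3 fell and 6 did not pass. Among them UPF2 changed by 0.86 ± 0.16, SMG1 by 0.62 ± 0.11 and RBM8A by -0.86 ± 0.21.

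The comparison of glucose-only with full cells asked what the absence of glutamine did while glucose was present. The members CLK1, SRSF4 and SRSF8 rose, and SRPK2, SRSF3, HNRNPD and HNRNPA2B1 fell. CLK1 had 74.7, 54.5 and 63.5 normalized counts in glucose-only and 35.7, 40.4 and 40.4 in full libraries, which do not overlap (0.70 ± 0.18, adjusted p = 0.00423). SRPK2 had 31.3, 27.2 and 30.6 in glucose-only and 45.6, 47.0 and 47.7 in full libraries (-0.64 ± 0.17, adjusted p = 0.00747). The other kinases did not pass, with CLK3 at 0.33 ± 0.20, CLK4 at -0.08 ± 0.23 and SRPK1 at 0.00 ± 0.11.

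SRSF3 was lower here, opposite to its change in deficient cells, with 131, 173 and 152 in glucose-only and 195, 213 and 203 in full libraries (-0.43 ± 0.10, adjusted p = 0.0034). SRSF4 had 95.2, 95.4 and 78.8 in glucose-only and 57.5, 61.1 and 66.0 in full libraries (0.53 ± 0.13, adjusted p = 0.00292). SRSF8, a gene that arose from a reverse-transcribed copy of SRSF2, had 68.7, 65.0 and 71.7 in glucose-only and 43.6, 40.4 and 55.0 in full libraries (0.56 ± 0.16, adjusted p = 0.00887). For all 3 genes the groups do not overlap. TRA2B stood at 149 ± 12.4 in glucose-only and 152 ± 5.72 in full libraries (-0.02 ± 0.11, adjusted p = 0.907).

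Of the hnRNP genes HNRNPD had 158, 180.2 and 159 in glucose-only and 225, 236 and 252 in full libraries (-0.52 ± 0.11, adjusted p = 6.08e-04). HNRNPA2B1 had 322, 385 and 350.4 in glucose-only and 427, 464 and 476 in full libraries (-0.37 ± 0.10, adjusted p = 0.00832), and the other 15 did not pass. The calls came to 3 higher and 4 lower, or 20% of 35 members, against 22.9% of all tested genes (9.44% higher and 13.5% lower). At a mean of at least 30 the shares were 21.9% of members and 33.0% of genes. With equal totals the split became 1 higher and 10 lower, and SRSF4 (0.145) and SRSF8 (0.161) did not pass by their adjusted p. HNRNPA2B1 had an adjusted p of 0.0579 without glucose-only replicate A, and SRSF8 an adjusted p of 0.0572 without full replicate B.

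**Figure D3:**
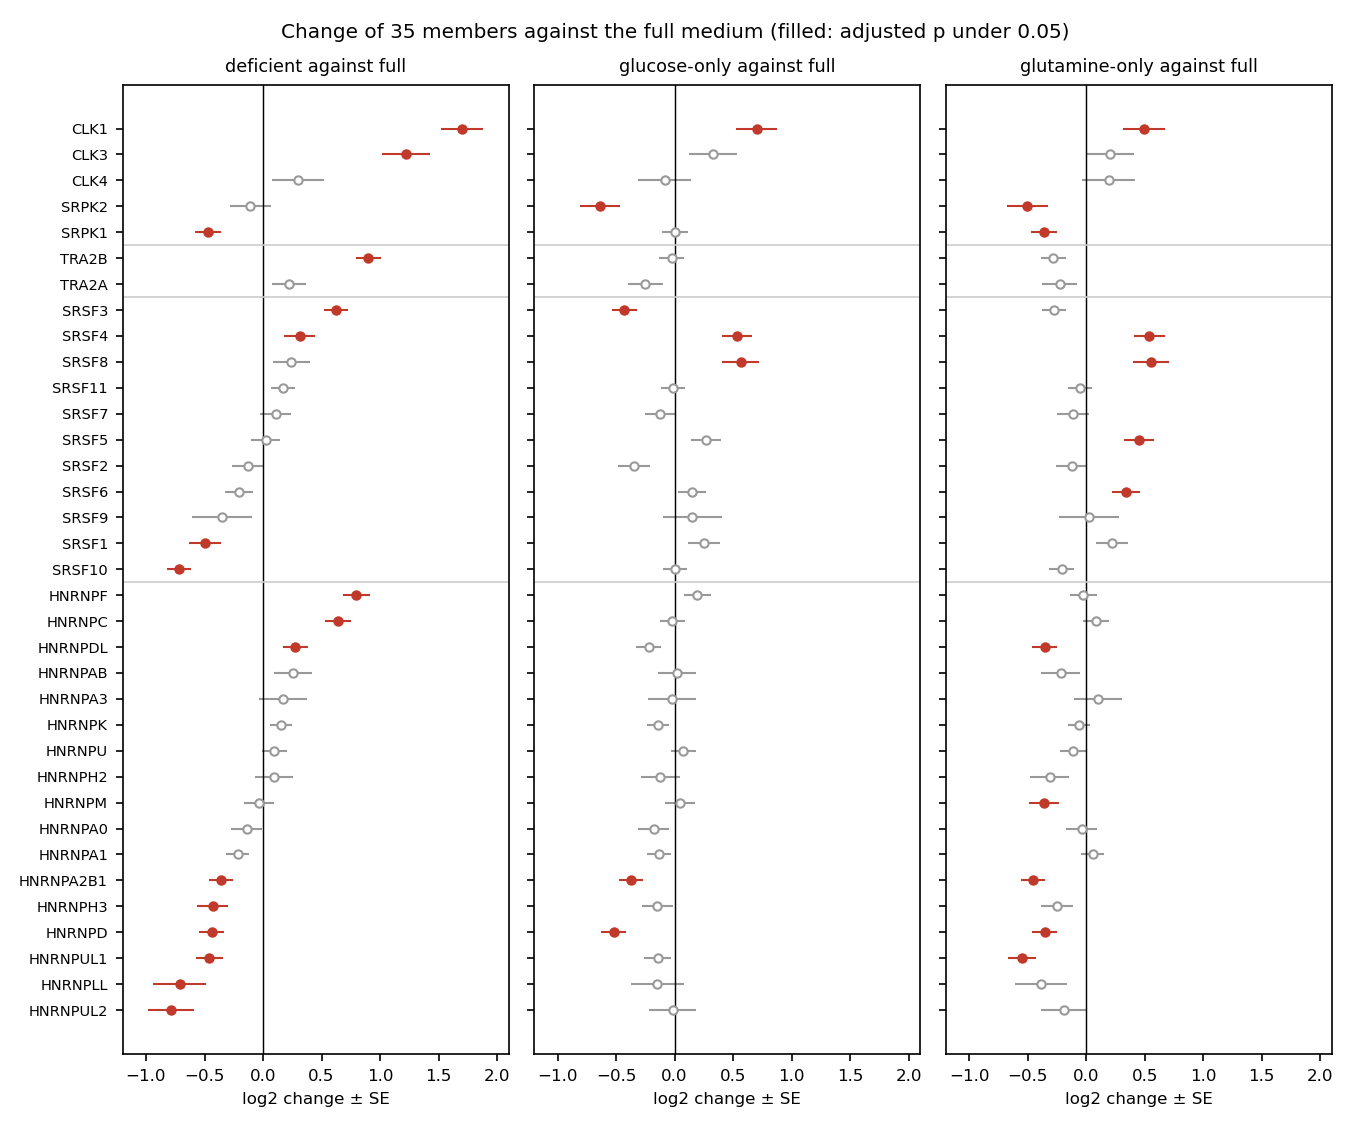
Points give the log2 change of each of 35 members (rows) against the full medium, with bars for the moderated SE, in deficient, glucose-only and glutamine-only cells (panels), and filled points have an adjusted p under 0.05. SRSF3 lies right of 0 in the deficient panel and left of 0 in both others, and SRSF4 lies right of 0 in all 3 at 0.31, 0.53 and 0.54.

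The comparison of glutamine-only with full cells asked what the absence of glucose did while glutamine was present. SRSF4, SRSF5, SRSF6 and SRSF8 rose with 0 of 11 SR genes lower, and 5 hnRNP genes fell with 0 of 17 higher. Of all tested genes 10.8% were higher and 11.6% lower. This split of the members depends on the scaling, since with equal totals 0 members were higher and 9 lower. Of the kinases CLK1 rose and SRPK1 and SRPK2 fell. SRSF8 had 64.9, 69.3 and 69.9 in glutamine-only and 43.6, 40.4 and 55.0 in full libraries (0.56 ± 0.16, adjusted p = 0.00975). SRSF4 had 95.6, 91.5 and 83.0 in glutamine-only and 57.5, 61.1 and 66.0 in full libraries (0.54 ± 0.13, adjusted p = 0.00241). SRSF5 had 127, 148 and 125 in glutamine-only and 87.3, 105 and 99.99 in full libraries (0.45 ± 0.13, adjusted p = 0.00995). The groups of all 3 genes lie apart. SRSF6 changed by 0.34 ± 0.12 (adjusted p = 0.0391), and SRSF3 did not pass at -0.28 ± 0.10 (adjusted p = 0.0575).

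CLK1 had 64.9, 70.3 and 36.4 in glutamine-only and 35.7, 40.4 and 40.4 in full libraries. Replicates A and B of the glutamine-only medium lay above every full library and replicate C among them, and the change just passed (0.49 ± 0.18, adjusted p = 0.0425). It had an adjusted p of 0.0624 to 0.271 without glutamine-only replicate A or B or full replicate A, B or C. SRPK1 had 129.9, 122 and 123 in glutamine-only and 155, 174 and 154 in full libraries (-0.36 ± 0.11, adjusted p = 0.0168), and SRPK2 33.4, 28.9 and 36.4 in glutamine-only and 45.6, 47.0 and 47.7 in full libraries (-0.50 ± 0.17, adjusted p = 0.0349). Both kinase genes were lower without overlap of the groups.

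HNRNPUL1 had 127, 109 and 97.9 in glutamine-only and 172, 167 and 149 in full libraries (-0.55 ± 0.12, adjusted p = 8.40e-04). HNRNPA2B1 had 320.2, 338 and 339 in glutamine-only and 427, 464 and 476 in full libraries (-0.45 ± 0.10, adjusted p = 0.00148). In both genes every glutamine-only library lay below every full library. HNRNPD was at -0.35 ± 0.11, HNRNPDL at -0.35 ± 0.11 and HNRNPM, a repressor and activator of exons that binds GU-rich RNA, at -0.36 ± 0.13 (adjusted p = 0.0165, 0.0187 and 0.0448).

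In this comparison 12 of 35 members passed (34.3%), 5 higher and 7 lower, against 22.5% of all tested genes (10.8% higher and 11.6% lower). At a mean of at least 30 the shares were 37.5% of members and 31.9% of genes. With equal totals 0 members were higher and 9 lower, SRSF3 and TRA2B among them, 5 members passed with DESeq2, and many of these calls rest on few libraries. SRSF5 had an adjusted p of 0.0688 to 0.0711 without glutamine-only replicate B or full replicate A, SRSF6 an adjusted p of 0.116 to 0.272 without glutamine-only replicate A or C or full replicate B and SRSF8 an adjusted p of 0.0617 without full replicate B. SRPK1 had an adjusted p of 0.0516 to 0.0898 without glutamine-only replicate B or C or full replicate B, and SRPK2 an adjusted p of 0.0692 to 0.141 without glutamine-only replicate A or B or full replicate A, B or C. HNRNPD had an adjusted p of 0.0722 to 0.081 without glutamine-only replicate C or full replicate C, HNRNPDL an adjusted p of 0.06 to 0.0939 without glutamine-only replicate A or B or full replicate B or C and HNRNPM an adjusted p of 0.0524 to 0.285 without glucose-only replicate B, glutamine-only replicate A or C or full replicate C. Without full replicate B 6 members passed, and without full replicate C or glutamine-only replicate B 7.

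These 3 comparisons share the full libraries, and their values are side by side for that reason only. CLK1, SRSF4, HNRNPA2B1 and HNRNPD passed in all 3. CLK4, SRSF2, SRSF7, SRSF9, SRSF11, HNRNPA0, HNRNPA3 and HNRNPU passed in none of the comparisons described here, which does not show that they were constant.

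Set against deficient cells, those given 1 nutrient differed in 17 of 35 members, both with glucose (48.6%, against 43.2% of all tested genes) and with glutamine (48.6%, against 41.5%). At a mean of at least 30 the members' share was lower than that of genes, 46.9% against 53.7% with glucose and 50% against 52.9% with glutamine. On the log2 scale glucose-only cells had SRSF3 at -1.05 ± 0.10, TRA2B at -0.92 ± 0.11, CLK1 at -0.999 ± 0.18 and CLK3 at -0.89 ± 0.20 (adjusted p = 3.60e-09, 5.35e-08, 4.03e-05 and 7.98e-04). Glutamine-only cells had SRSF3 at -0.90 ± 0.10, TRA2B at -1.18 ± 0.11, CLK1 at -1.21 ± 0.18 and CLK3 at -1.02 ± 0.20 (adjusted p = 7.87e-08, 6.03e-10, 3.22e-06 and 2.27e-04). SRSF1 was higher with either nutrient than with neither, at 0.75 ± 0.14 with glucose and 0.72 ± 0.14 with glutamine (adjusted p = 6.56e-05 and 1.25e-04), and so was SRSF10, at 0.72 ± 0.10 with glucose and 0.51 ± 0.10 with glutamine (adjusted p = 2.25e-06 and 2.83e-04). All of these kept an adjusted p under 0.05 with each library left out.

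The split of calls against deficient cells moved with scaling. With glucose 7 members were higher and 10 lower (all tested genes: 20.1% and 23.2%), which became 12 and 6 under equal totals. With glutamine 6 members were higher and 11 lower (19.9% and 21.6%), which became 13 and 6. The median change of all genes moved by 0.18 and 0.27 in that setting.

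Between glucose-only and glutamine-only cells SRPK1, HNRNPUL1 and HNRNPM passed, all higher with glucose. SRPK1 had 163, 173 and 148 in glucose-only and 129.9, 122 and 123 in glutamine-only libraries (0.36 ± 0.11, adjusted p = 0.0246). HNRNPUL1 changed by 0.40 ± 0.12 (adjusted p = 0.0193) and HNRNPM by 0.41 ± 0.13 (adjusted p = 0.0343). These 3 of 35 members (8.57%) compare with 13.3% of all tested genes (5.05% higher and 8.26% lower), and at a mean of at least 30 the shares were 9.38% of members and 20.6% of genes. The count was 0 with DESeq2 and 0 under equal totals. It was 0 without glucose-only replicate B or glutamine-only replicate C and 1 without glucose-only replicate A, glucose-only replicate C or glutamine-only replicate B. None of the SR genes passed (0 at an unadjusted p under 0.05 in limma).

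Whether the loss of 1 nutrient acted differently when the other was also absent was tested as an interaction, the change on losing glutamine without glucose minus that with glucose, which equals the same difference for glucose. It passed for 16 of 35 members (45.7%), against 26.5% of all tested genes (15.5% positive and 11% negative) and, at a mean of at least 30, for 50% of members against 37.0% of genes. Of 11 SR genes 6 were negative, 1 positive and 4 did not pass, and of 17 hnRNP genes 6 were positive, none negative and 11 did not pass, while under quantile normalization only HNRNPDL of the positive hnRNP genes passed and HNRNPA1 was negative. Both TRA2 genes and SRPK2 were positive.

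SRSF3 had the highest value, 1.33 ± 0.15 (adjusted p = 8.52e-08). Its mean normalized count was 314 ± 3.92 in deficient, 152 ± 20.8 in glucose-only, 168 ± 10.1 in glutamine-only and 204 ± 9.20 in full libraries (SD, n = 3 each), lowest with either nutrient alone and highest with neither. Losing glutamine changed it by -0.43 with glucose present and by 0.90 with glucose absent. TRA2B followed at 1.205 ± 0.15 (adjusted p = 5.61e-07), with 284 ± 15.3 in deficient, 149 ± 12.4 in glucose-only, 125 ± 13.2 in glutamine-only and 152 ± 5.72 in full libraries. SRPK2 was at 1.03 ± 0.24 (adjusted p = 0.00213), with 41.7, 38.6 and 50.5 in deficient and 45.6, 47.0 and 47.7 in full libraries but no more than 36.4 in any library with 1 nutrient.

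The reverse shape was seen in SRSF1, at -0.97 ± 0.19 (adjusted p = 4.03e-04). It had 97.6, 104 and 84.7 in glucose-only and 86.6, 91.5 and 102 in glutamine-only libraries, each above every full library (84.0, 75.2 and 79.8), and its lowest values in deficient ones (50.8, 50.7 and 69.1). SRSF8 was at -0.88 ± 0.22, SRSF4 at -0.76 ± 0.18, SRSF6 at -0.70 ± 0.17 and SRSF5 at -0.69 ± 0.18 (adjusted p = 0.00364, 0.0023, 0.00259 and 0.00443). These 4 genes were highest in the 2 media with 1 nutrient by their means. SRSF6, for example, had 121 ± 9.36 in deficient, 156 ± 14.6 in glucose-only, 177 ± 12.8 in glutamine-only and 141 ± 21.4 in full libraries. SRSF10 was at -0.51 ± 0.15 (adjusted p = 0.0106).

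Of the hnRNP genes HNRNPDL had the highest interaction, 0.85 ± 0.16 (adjusted p = 1.38e-04), with 197 ± 9.20 in deficient, 139.6 ± 14.8 in glucose-only, 127 ± 11.5 in glutamine-only and 163 ± 10.4 in full libraries. HNRNPF was at 0.63 ± 0.16 and HNRNPC at 0.58 ± 0.15, and neither passed against full medium with either nutrient alone (adjusted p = 0.244 and 0.922 with glucose, 0.912 and 0.641 with glutamine). HNRNPA2B1 (0.46 ± 0.14), HNRNPD (0.44 ± 0.15) and HNRNPK (0.36 ± 0.13) had smaller values, and TRA2A was at 0.70 ± 0.21. HNRNPA2B1, for example, had 356 ± 45.1 in deficient, 352 ± 31.5 in glucose-only, 333 ± 10.7 in glutamine-only and 456 ± 25.6 in full libraries.

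The kinases CLK1 (0.50 ± 0.25, adjusted p = 0.136) and CLK3 (0.69 ± 0.29, adjusted p = 0.0781) did not pass, so their larger changes on losing both nutrients are not shown to exceed the sum of the single losses. CLK1 stood at 128 ± 4.15 in deficient, 64.2 ± 10.1 in glucose-only, 57.2 ± 18.3 in glutamine-only and 38.8 ± 2.71 in full libraries. Of the 13 tested heat shock genes 13 passed with a positive interaction, against 15.5% of all tested genes, and their part in these values was not tested.

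**Figure D4:**
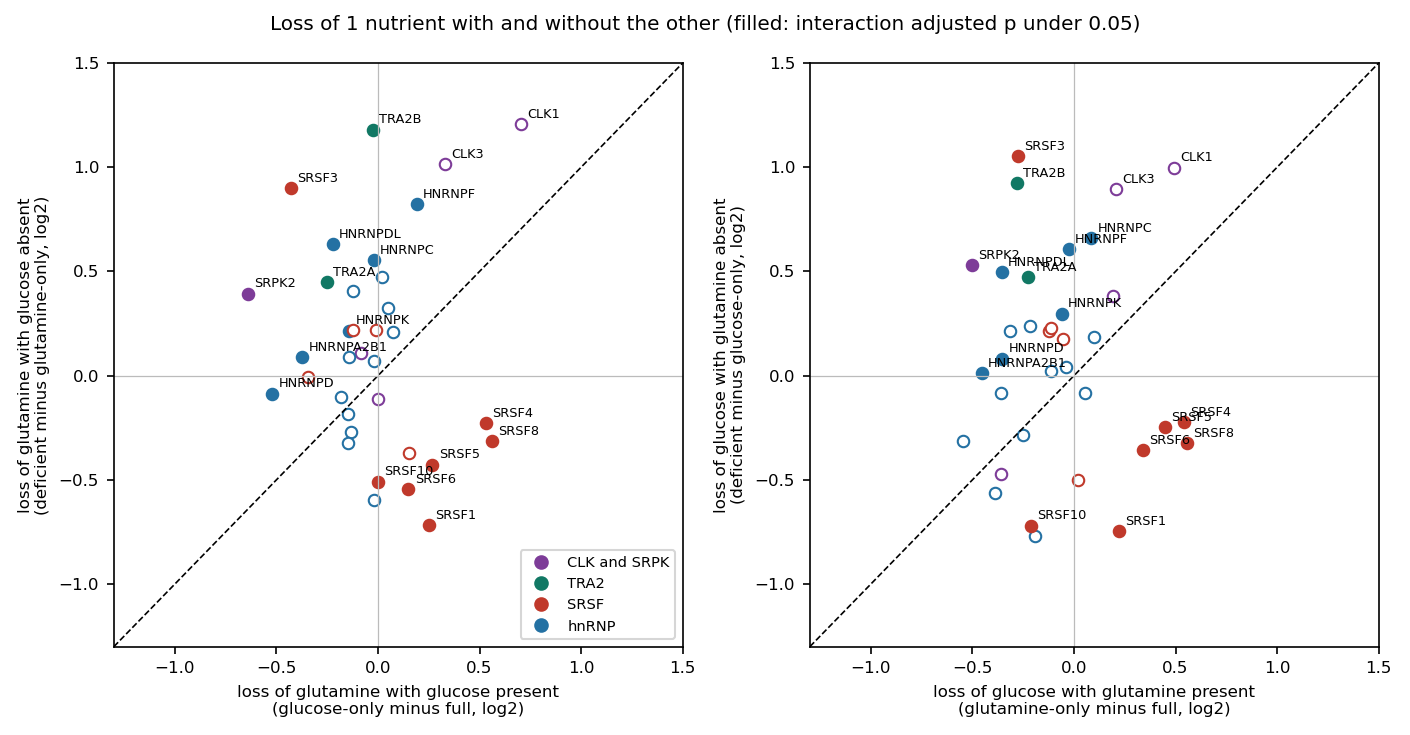
Left, the log2 change on losing glutamine with glucose absent (vertical) against that with glucose present (horizontal), and right, the same for losing glucose, for 35 members coloured by family; the dashed line marks equal changes and filled points passed the interaction. SRSF3 and TRA2B lie far above the line and SRSF1, SRSF4, SRSF5, SRSF6 and SRSF8 below it, with changes above 0 on losing 1 nutrient and below 0 on losing the second.

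With equal totals 6 members were positive and 6 negative, and with quantile normalization 4 and 7. SRSF3, TRA2B, HNRNPDL, SRPK2, SRSF1, SRSF4, SRSF5, SRSF6 and SRSF8 passed in the same direction under every alternative in which they were tested and with each library left out, while HNRNPC, HNRNPF, HNRNPA2B1, HNRNPD, HNRNPK, TRA2A and SRSF10 lost the call in at least 1. HNRNPA2B1 had an adjusted p of 0.0518 to 0.056 without deficient replicate C or glucose-only replicate A. HNRNPD had an adjusted p of 0.0517 to 0.0884 without deficient replicate B or C, glucose-only replicate A or C, glutamine-only replicate C or full replicate B or C. HNRNPK had an adjusted p of 0.0531 to 0.106 without deficient replicate C, glucose-only replicate A, B or C, glutamine-only replicate A or C or full replicate B or C. DESeq2 called 11 members, 5 positive and 6 negative.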

How the data were processed

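Total RNA depleted of ribosomal RNA was sequenced from 12 libraries of MDA-MB-231 cells. The values are the authors' normalized counts, a signal of reads per gene divided by a size factor for each library, as deposited in 1 table; the submitters' processing notes name FastQC, HISAT2, Subread, DESeq2 and build GRCh38.p14. In each library 100% of values were whole multiples of 1 read within 0.01 reads, and these reads served the count tests.

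Members, lists and the rule for named genes were chosen with earlier results of these data known. The rule took 15 fixed genes (the kinases, both TRA2 genes, SRSF1, SRSF2, SRSF3, SRSF7, HNRNPA1, HNRNPK and HNRNPU), all members past the threshold in the interaction, per comparison with full cells and between the single media the 4 highest and 4 lowest changes past the threshold at a mean normalized count of at least 30, and up to 4 such genes from each other list; other members were named after their values were seen. The test was limma 3.58.1 (R 4.3.3) with a mean-variance trend on log2(normalized count + 1), 1 mean per medium over 12 libraries, for 9270 genes at 10 or more in at least 3 libraries, with Benjamini-Hochberg adjustment over all of them. The script was tested on simulated data. A change on this scale understates that of low genes. Alternatives were other pseudocounts (0.5 and 8), filters and scalings, protein-coding size factors, a replicate block, edgeR 4.0.16, DESeq2 1.42.0, an adjusted p under 0.01 and each library left out. Libraries held 875033 to 1473587 reads. In every library VIM (641 to 1047 normalized counts), CD44, AXL and KRT18, from a list drawn up for mesenchymal breast cancer lines, were high. CDH2, also on that list, was at most 1.30. Of luminal markers CDH1 and ESR1 were at most 2.35, EPCAM at most 15.0 and KRT19 63.9 to 164. Of fibroblast markers COL1A1 was at most 6.61, and COL3A1 and LUM had no read. Of blood cell markers CD14 was at most 8.26 and PTPRC at most 3.9, and HBB had no read. Of endothelial markers PECAM1 was at 2.10 to 19.7 and KDR at 0.94 to 15.7. The annotation release and strand setting are not given in the sources used here, so reads of overlapping antisense genes may be shared. GENCODE 29 and RefSeq gave exons and start sites.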

Additional observations from a re-analysis of the deposited data

Results flagged for a closer look

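The change on losing 1 nutrient differed with the presence of the other, by the interaction term of the limma fit over all genes, in 16 members. That is 45.7% of 35 members, against 26.5% of all tested genes, and 50% against 37.0% at a mean of at least 30. The calls of HNRNPF, HNRNPC, HNRNPA2B1, HNRNPD, HNRNPK, TRA2A and SRSF10 were lost under at least 1 alternative. The values are differences of log2 changes, with the Benjamini-Hochberg adjusted p. The positive ones were SRSF3 at 1.33 (adjusted p = 8.52e-08), TRA2B at 1.2 (5.61e-07), SRPK2 at 1.03 (0.00213), HNRNPDL at 0.85 (1.38e-04) and TRA2A at 0.70 (0.0132). Further hnRNP genes were HNRNPF at 0.63 (0.00447), HNRNPC at 0.58 (0.00543), HNRNPA2B1 at 0.46 (0.0176), HNRNPD at 0.44 (0.0325) and HNRNPK at 0.36 (0.0457). The negative ones were all SR genes, namely SRSF1 at -0.97 (4.03e-04), SRSF8 at -0.88 (0.00364), SRSF4 at -0.76 (0.0023), SRSF6 at -0.70 (0.00259), SRSF5 at -0.69 (0.00443) and SRSF10 at -0.51 (0.0106).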

How the results depend on the processing

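Of 89 member changes past the threshold over the 7 contrasts, 57 kept it with every library left out in turn, 48 under all other alternatives and 45 throughout. With each library left out, the members called numbered 14 to 18 in deficient against full, 6 to 8 in glucose-only against full, 6 to 13 in glutamine-only against full, 14 to 19 in glucose-only against deficient, 12 to 17 in glutamine-only against deficient, 0 to 3 in glucose-only against glutamine-only and 13 to 16 in the interaction. Under equal totals HNRNPDL and SRSF4 turned to -0.12 and -0.0846 in deficient against full, and under quantile normalization HNRNPK turned to 0.0214 in glucose-only against deficient; the cause was not tested. Testing only genes with a mean of at least 100, which drops members, gave 11 in deficient against full, 3 in glucose-only against full and 10 in glucose-only against deficient. Equal totals gave 11 in glucose-only against full and 0 in glucose-only against glutamine-only, where quantile normalization gave 6. With no filter on low values, with DESeq2 and with an adjusted p under 0.01 alike, 5 members passed in glutamine-only against full, 11 in each single medium against deficient and 0 in glucose-only against glutamine-only. Of 156 values not past the threshold, 75 changed sign under some alternative and 3 passed in the opposite direction.

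Deviations of same-lettered libraries of different media correlated only weakly (-0.0289 to 0.0670 over 18 pairs, median 0.0101). Pairs with different letters had -0.0728 to 0.0392 (36 pairs, median -0.00554). The highest values were those between libraries C of the deficient, glutamine-only and full media (0.0611 to 0.0670). Deficient and glucose-only libraries C had the lowest same-letter value, -0.0289. Correlations this weak cannot decide whether same-lettered libraries shared a culture or a preparation. With the letter as a replicate block 17 members passed in deficient against full, 8 in glucose-only against full, 13 in glutamine-only against full, 17 in each single medium against deficient, 3 in glucose-only against glutamine-only and 16 in the interaction. At 875033 to 1473587 reads per library 12 of 47 members were too low to test.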

Other observations

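SRSF9, a small SR gene, had 46.9, 14.5 and 35.7 normalized counts in deficient libraries A, B and C, so that library B lay below the other 11 libraries of all media, which stood at 30.3 to 46.9. The antisense gene GATC overlaps part of the exons of SRSF9 in GENCODE 29, with 46.2% of its exonic bases shared on either strand. HNRNPU had 462, 324 and 424 in deficient libraries A, B and C, and library B was also the lowest of the 3 there, against 388, 358 and 372 in full libraries. The summed normalized count of the 35 tested members was 4781 ± 192 in deficient, 4280.2 ± 113 in glucose-only, 4135 ± 87.9 in glutamine-only and 4496 ± 58.0 in full libraries (SD, n = 3 each). As a share of reads on protein-coding genes it was 0.823 ± 0.0238% in deficient, 0.888 ± 0.0259% in glucose-only, 0.799 ± 0.0154% in glutamine-only and 0.872 ± 0.00409% in full libraries.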
